A study of Homo sapiens with 3 samples.

Results

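SMAD2/3 binding was examined around 7 genes that define or hold together epithelial cells, namely CDH1, GRHL2, ESRP1, TP63, CLDN1, EPCAM and KLF4. The genes were named by role, by a choice made with earlier results of these data known. A peak counted as near a gene when it overlapped the gene body, or the 50 kb on either side of it, on hg19. The windows hold 0 of the 3280 peaks listed at 16 h and 6 of the 2206 peaks listed at 1.5 h. Peaks come from chromatin immunoprecipitation of MCF10A MII, an H-Ras transformed human breast epithelial line, with 1 antibody against SMAD2 and SMAD3. One library was made 16 h and one 1.5 h after 5 ng/ml of TGFβ3, and both carry the H-Ras transformation. An input DNA library of untreated cells was not analysed here. The 3 samples include no ChIP library of untreated cells, so whether the peaks depend on TGFβ3 was not tested. With 1 library per time and no read counts, no value has a replicate error, no difference between the times can be tested, and sequencing depth is unknown. Peak lists hold no expression, so the epithelial label of the cells and the activity of the 7 genes were not checked.

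TGFβ binds serine/threonine kinase receptors that phosphorylate SMAD2 and SMAD3. These then join SMAD4 and bind DNA together with other transcription factors, which in large part set where they bind in a given cell type. In breast epithelial cells prolonged TGFβ is known for driving epithelial-mesenchymal transition, in which junction proteins and regulators of epithelial identity are lowered. TP63, GRHL2 and KLF4 encode transcription factors, ESRP1 a splicing regulator, and CDH1, CLDN1 and EPCAM proteins of cell contacts.

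Most of the epithelial genes had no SMAD2/3 peak nearby at either time. At 16 h none of the 7 windows held a peak, and at 1.5 h 2 of 7 did. TP63 had 5 of the 6 peaks and KLF4 had 1, while CDH1, GRHL2, ESRP1, CLDN1 and EPCAM had none at either time. When the genome was cut into tiles of 167 kb, the median width of the windows, 14.7% of 17431 tiles held a 16 h peak, 8.33% held a 1.5 h peak and 4.69% held a 1.5 h peak without a 16 h peak. Most tiles thus held no peak of either list, so a window without a peak is the usual case at this width. Tiles also cover stretches without genes, so they are a background and not a matched comparison. The counts of 0 and 2 windows among 7 are small and were not tested against it.

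**Figure D1:**
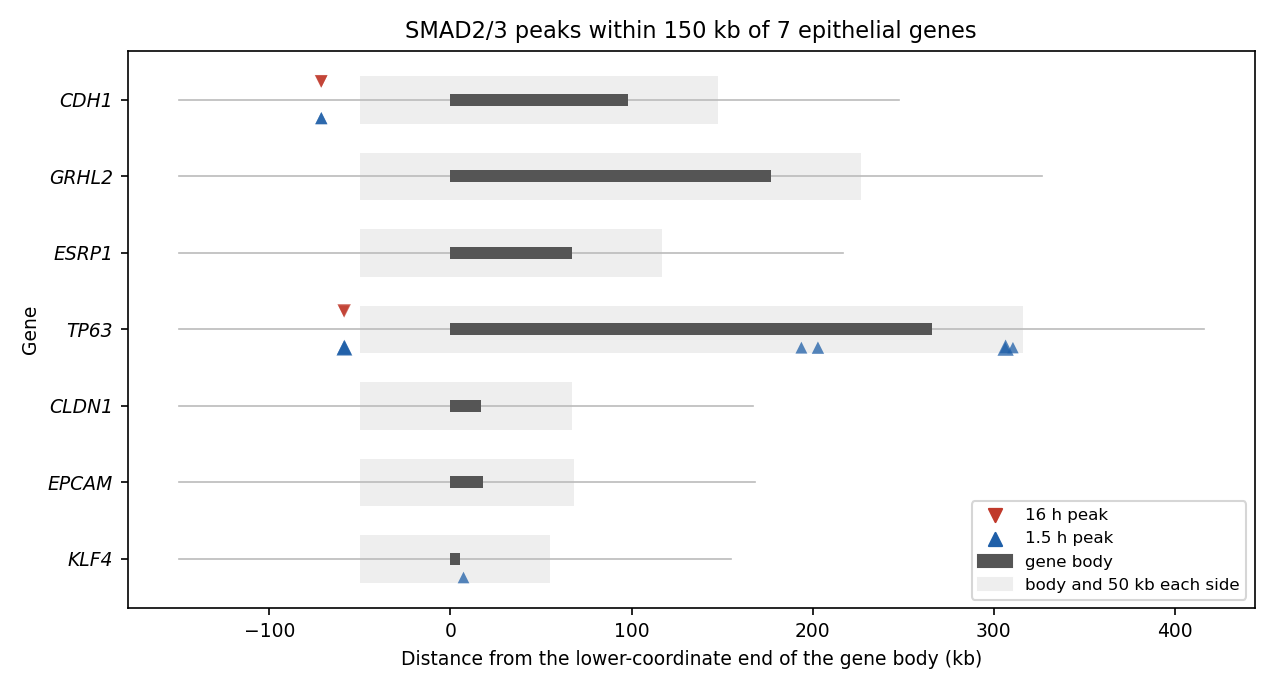
Peaks within 150 kb of each gene, placed by their distance in kb from the lower-coordinate end of the gene body (dark bar). The pale box is the gene body with 50 kb on each side, red triangles pointing down are 16 h peaks, blue triangles pointing up are 1.5 h peaks, and larger triangles have higher scores. Inside the boxes there are 5 peaks at TP63 and 1 at KLF4, all from 1.5 h, and the TP63 and CDH1 rows also carry peaks of both times just outside the box.

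The windows together span 1.35 Mb. At 16 h they held 0 peaks, against 1.13 peaks per Mb over the 2910 Mb tiled. With 3 counts taken as the upper limit for a count of 0, up to 2.23 peaks per Mb are allowed. A depletion of 16 h peaks at these genes was therefore not detectable. At 1.5 h the density was 4.45 peaks per Mb in the windows, against 0.758 over the tiled genome. That value rested on 1 gene: the TP63 window had 13.7 peaks per Mb, and the other 6 windows together had 1.02. It also rested on the flank: at 1.5 h TP63 held 5 peaks with 50 kb on each side. With 20 kb, or with the gene body alone, it held 2.

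TP63 encodes p63, the transcription factor of basal and stratified epithelia, from a long gene with separate promoters for the TA and ΔN forms. On hg19 its body runs from about 189349 to 189615 kb on chromosome 3. At 16 h the window had no peak. At 1.5 h it had 5, of which 2 lay inside the body and 3 beyond its end. Exons and introns were not assigned, since no hg19 annotation was used here. The separate promoters were not located either, so the TP63 start means the lower-coordinate end of the body throughout.

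Inside the TP63 body were 2 of the 5 peaks, both in its last part. The first, chr3:189542803-189542902, was 100 bp wide with a MACS score of 61.93, and lay 194 kb from the gene start, or 72.9% of the way along the body. The second, chr3:189551928-189552038, was 111 bp wide with a score of 69.95, and lay 203 kb from the start. The scores are the authors' own and rank peaks within 1 list. Of the 2206 peaks at 1.5 h, 42.1% scored lower than the first and 59.0% lower than the second, which puts both near the middle of their list. The nearest 16 h peaks were 252 and 262 kb away.

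Beyond the TP63 end lay the other 3 peaks of the window. The highest of all 6 peaks near the epithelial genes was chr3:189655556-189655770, 215 bp wide and 40.6 kb past the gene body, with a score of 147.14, rank 218 of 2206. A peak of 116 bp, chr3:189655417-189655532, ended 23 bp before it and scored 50.02, the lowest score in the 1.5 h list. A further peak of 120 bp, chr3:189659648-189659767, lay 44.6 kb past the gene and scored 54.51. The nearest 16 h peaks to these 3 were 365, 365 and 369 kb away. In the RefSeq gene order of another build, GRCh38, the next protein-coding gene on that side is P3H2, which encodes a collagen prolyl 3-hydroxylase. Which gene these sites act on, if any, was not tested.

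Just outside the TP63 window was a site listed at both times. Its peaks lay 58.3 to 58.8 kb before the gene start, and the window ended at 50 kb. At 16 h it held 2 peaks, chr3:189290042-189290152 with a score of 50.52 and chr3:189290181-189290336 with a score of 89.12. At 1.5 h it held 3 peaks, chr3:189290124-189290265 scoring 104.41, chr3:189290309-189290493 scoring 139.3 and chr3:189290522-189290661 scoring 93.73. Both 16 h peaks and the first 2 of the 1.5 h peaks overlapped a peak of the other list, and the third began 0.186 kb past the last 16 h peak. Within the 16 h list the higher peak ranked 466 of 3280 and the lower one 3187, close to the end. Within the 1.5 h list the 3 peaks ranked 419, 237 and 507 of 2206. Scores depend on depth, so they were not compared in size between the lists.

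**Figure D2:**
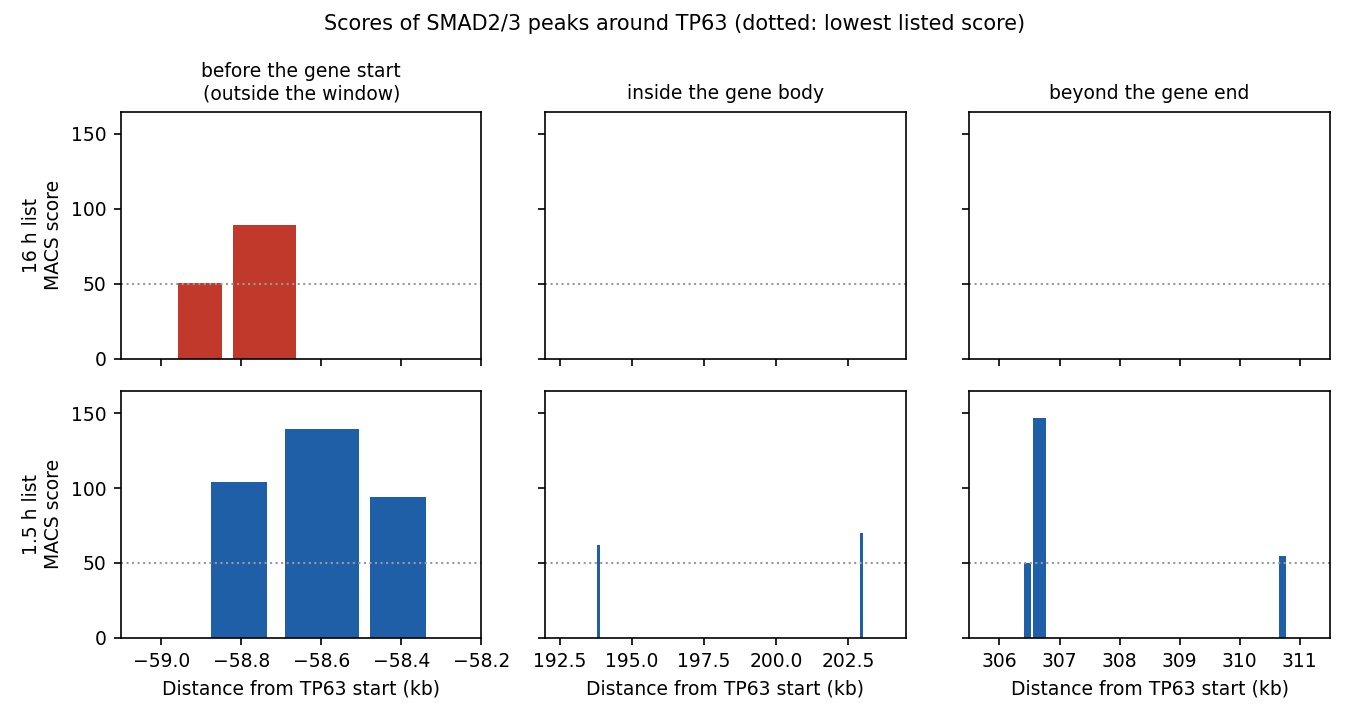
MACS score (vertical axis) of each listed peak around TP63 against its distance in kb from the gene start, in the 16 h list (top row) and the 1.5 h list (bottom row), with bars as wide as the peaks where the scale allows and a minimum width elsewhere. The left column shows the site before the gene with 2 peaks at 16 h and 3 at 1.5 h, while the 2 peaks inside the body and the 3 beyond its end appear in the 1.5 h row alone.

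The TP63 locus thus had 2 peaks at 16 h and 8 at 1.5 h when 100 kb were taken on each side in place of 50 kb. This wider window ends the absence of 16 h peaks near TP63. Of 7962 tiles as wide as the TP63 window, 366 kb, 51 (0.641%) held at least 5 peaks at 1.5 h, and 6 (0.0754%) held at least 5 with no 16 h peak. Both limits were taken from the TP63 window after its counts were seen, and it is the window with the most peaks of the 7. Tiles were not recounted with neighbouring peaks merged. These shares describe how often such a count occurs in the lists, are no test and give no measure of rarity for TP63. A window reaching 58.7 kb before the gene would have held a 16 h peak. The count of 5 also includes neighbours 23 bp apart: with peaks under 500 bp apart merged, 4 sites remained in the window.

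KLF4 encodes a zinc finger transcription factor of epithelial differentiation and of growth control. It was the only member with a peak close to its start. No peak was in the KLF4 window at 16 h, where the nearest was 1430 kb from the gene, scoring 51.72. At 1.5 h there was 1 peak, chr9:110253787-110253914, 128 bp wide with a score of 58.13. KLF4 lies on the minus strand, so this peak was upstream of the gene, with its nearer edge 1.79 kb from the gene body. Gene limits were given to 1 kb, so this distance may be off by up to 1 kb. The peak was a low one, rank 1552 of 2206, with 29.6% of the list below it, and it is lost when scores under 60 are left out. The next 1.5 h peak on the upstream side was 551 kb away at chr9:110803049-110803575, with a score of 394 and no overlapping 16 h peak. A nearer 1.5 h peak lay on the downstream side, 278 kb from the gene, with a score of 58.46 and no overlapping 16 h peak.

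The KLF4 promoter is shown because the KLF4 start is the one member start with a listed peak nearby. The 250 bases before the start, on the minus strand of chromosome 9 of GRCh38.p14 (RefSeq), run from 107490019 down to 107489770:

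KLF4: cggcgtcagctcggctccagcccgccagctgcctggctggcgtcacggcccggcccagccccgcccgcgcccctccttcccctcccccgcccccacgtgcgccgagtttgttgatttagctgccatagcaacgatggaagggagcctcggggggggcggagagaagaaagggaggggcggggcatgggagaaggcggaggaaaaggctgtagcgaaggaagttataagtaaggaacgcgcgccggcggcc

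None of 4 sets of letters was found in these 250 bases on either strand, so none is in capitals. The letters were CAGAC (the SMAD box), GGCGCC (a palindromic SMAD motif), CACCTG (an E-box) and TGANTCA (the AP-1 motif). Other forms of the E-box were not searched, so their absence is not implied. With the 50 bases after the start included, CAGAC occurred 1 time in KLF4, 1 time in TP63 and 1 time in CLDN1, the 3 of 7 members with an entry in the promoter table. Whether the TP63 entry is the promoter of the TA or of the ΔN form was not determined. GGCGCC occurred 2 times in CLDN1 and not in KLF4 or TP63, and CACCTG and TGANTCA occurred in none of the 3. Of 35116 promoters of the same length, 45.3% held CAGAC, 19.2% GGCGCC, 20.6% CACCTG and 7.71% TGANTCA. No listed peak overlapped the start of any of these 3 genes, and the peak upstream of KLF4 lies outside the printed stretch, so the letters say nothing of the bound sites.

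CDH1 encodes E-cadherin, the cadherin of adherens junctions. No peak of either time fell in its window, which covers the gene body at 68771 to 68869 kb of chromosome 16 and 50 kb on each side. The nearest site was listed at both times and lay about 71 kb from the body, on the side of lower coordinates. At 16 h it held chr16:68699487-68699633, scoring 79.02, and chr16:68699641-68699738, scoring 58.01. At 1.5 h it held chr16:68699540-68699638, scoring 66.34, and chr16:68699659-68699760, scoring 64.98. All 4 peaks overlapped a peak of the other list. They ranked 600 and 1475 of 3280 at 16 h, and 1038 and 1103 of 2206 at 1.5 h. The next protein-coding gene on that side in the GRCh38 gene order is CDH3, which encodes P-cadherin. Whether the site lies within CDH3 was not determined. On the other side of CDH1 the next peaks were 6670 kb away at 16 h and 3290 kb away at 1.5 h.

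CLDN1, which encodes the tight junction protein claudin-1, is on the same chromosome as TP63, with its body at about 190023 to 190040 kb. Its window had no peak at either time. The nearest 16 h peak was 733 kb away and was the stronger peak of the site before TP63. The nearest 1.5 h peak was 265 kb away, chr3:190304605-190304721, with a score of 100.73 and no overlapping 16 h peak. The peaks beyond the TP63 end were 363 kb or more from CLDN1.

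EPCAM encodes an adhesion protein of simple epithelia and many carcinomas. It had no peak in its window. The nearest site was listed at both times, 170 kb from the gene. The 16 h peak there was chr2:47426256-47426371, with a score of 50.9, against a lowest score of 50 in its list. The 1.5 h peak was chr2:47426223-47426297, with a score of 60.37, and the peaks overlapped.

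GRHL2 encodes a grainyhead-like transcription factor that maintains epithelial junction genes, and ESRP1 encodes a regulator of the epithelial pattern of splicing. Both genes are on chromosome 8 and had no peak in their windows at either time. The peak nearest to GRHL2 was 466 kb away at 16 h, with a score of 59.88, and 381 kb away at 1.5 h, with a score of 52.84. Neither overlapped a peak of the other list. The peak nearest to ESRP1 was 955 kb away at 16 h, with a score of 61.21, and 1090 kb away at 1.5 h, with a score of 159.8. The 16 h peak did not overlap a 1.5 h peak, and the 1.5 h peak overlapped another 16 h peak. ESRP1 was thus the member farthest from a peak at 1.5 h, and at 16 h only KLF4 was farther.

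**Figure D3:**
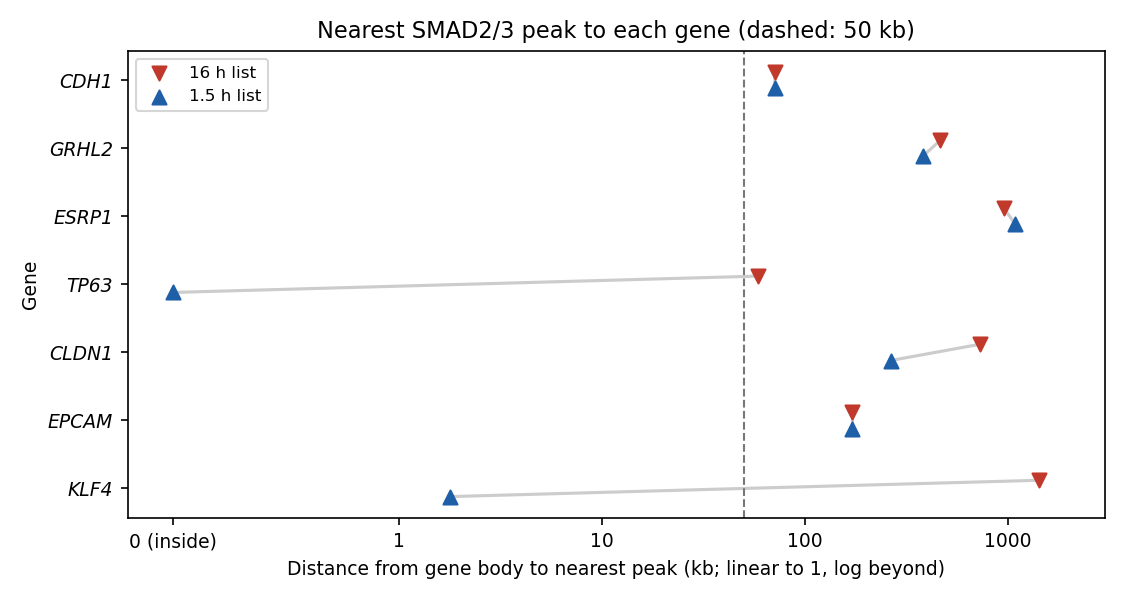
Distance in kb from each gene body to the nearest peak of the 16 h list (red, pointing down) and of the 1.5 h list (blue, pointing up), on an axis that is linear up to 1 kb and logarithmic beyond, with a dashed line at 50 kb. The TP63 and KLF4 symbols for 1.5 h, at 0 and 1.79 kb, are left of the line; all 16 h symbols are right of it, from 58.7 kb at TP63 to 1430 kb at KLF4.

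None of the 6 peaks in the windows overlapped a peak of the other list. Over whole lists, 16.6% of 16 h peaks overlapped a 1.5 h peak and 25.3% of 1.5 h peaks overlapped a 16 h peak. With 3 counts taken as the upper limit for a count of 0, 0 among 6 allows a share of up to about 50%. This limit covers counting error alone, is rough for so few peaks, and treats 2 peaks that lie 23 bp apart as separate. The members' peaks could not be told from the list in this respect. Of the single nearest peaks outside the 7 windows, 4 of 7 at 16 h (CDH1, TP63, CLDN1 and EPCAM, with TP63 and CLDN1 sharing the same peak) overlapped a 1.5 h peak. At 1.5 h, 3 of 7 (CDH1, ESRP1 and EPCAM) overlapped a 16 h peak. The 1.5 h peak nearest to TP63 did not, but the other 1.5 h peaks of that site did, so the counts depend on taking single peaks. This count was made after the distances were seen, and no difference from the peaks inside the windows was tested.

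The 6 peaks were mostly ordinary members of their list. Their median score was 60.03, against 64.9 for all 1.5 h peaks, and their widths were 100 to 215 bp, against a median of 130 bp. Of the 6, 2 scored above the list median and 3 scored under 60. In the whole 1.5 h list the 35th percentile was a score of 59.76 and the 36th was 60.18. A score of 100 or more was reached by 1 of 6, the peak 40.6 kb beyond TP63, against 20.1% of the 1.5 h list. At 16 h, 11.5% of the list reached 100, and the windows held no peak. A peak absent from a list may lie just under the threshold there, and whether the 1.5 h sites were unbound at 16 h was not tested.

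**Figure D4:**
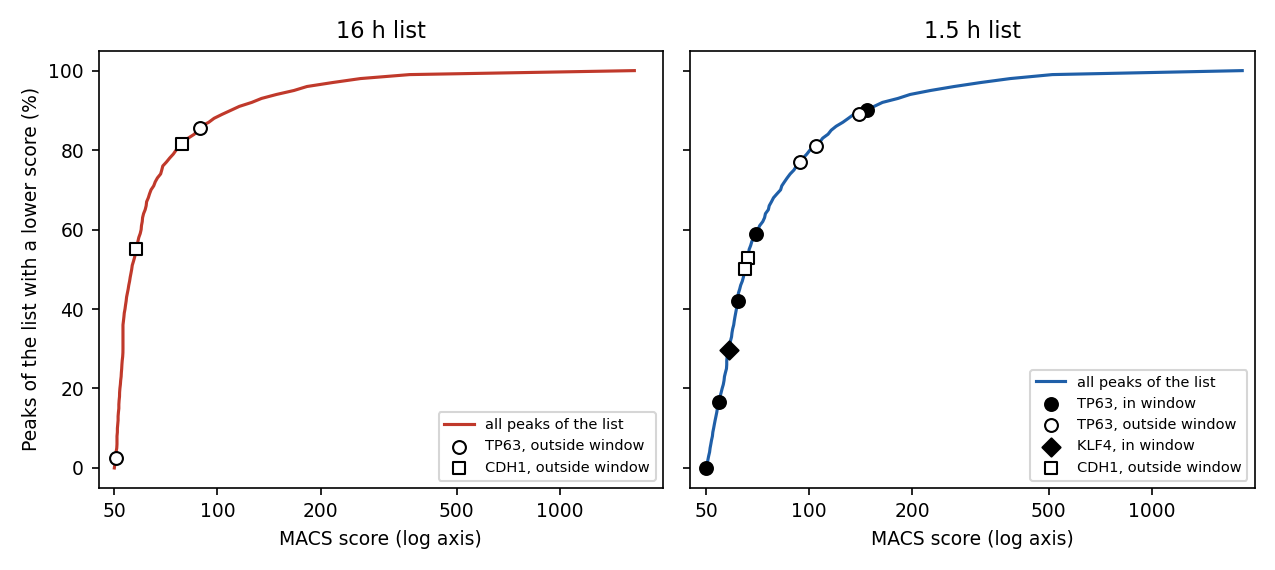
Share of the list with a lower score (vertical axis, %) against MACS score (horizontal log axis) for the 16 h list (left) and the 1.5 h list (right). Lines show all peaks, black symbols peaks inside the windows of TP63 (circles) and KLF4 (diamond), and open symbols the peaks outside the windows of TP63 (circles) and CDH1 (squares). Black symbols appear only at 1.5 h, from the bottom of the list at 50.02 to 147.14, above 90.1% of the list.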

How the data were processed

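The authors deposited a BED list of peaks per ChIP library, without a header, with a MACS score for each peak. Per the submitters' processing notes, Bowtie 1.1.0, Picard and MACS 1.4.2 were used on hg19. Settings, and whether the input served as control, were not stated in the labels. The lowest score is 50 at 16 h and 50.02 at 1.5 h. Samples were grouped by the treatment label.

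Gene limits on hg19, to 1 kb, came with the choice of genes. Members and lists were chosen with earlier results of these data known. All peaks overlapping a window by at least 1 bp are described, and every member is named, with its nearest peak where it has none. Starts were made 1-based. Tiles ran from the first to the last listed peak of each chromosome and took peaks by midpoint. Strands and promoters came from RefSeq (GRCh38.p14), in which 3 of 7 members had a promoter entry. No coordinates were converted between builds, and peak sequences were not read. A planned count over other epithelial genes was not made, since it needed an hg19 annotation. Python 3.11.15, pandas 2.3.3, numpy 2.4.6 and matplotlib 3.10.9 were used. Window assignment, overlap and merging were tested on simulated data (20 sets). The alternatives were other flanks, score minimums, equal list lengths, merged neighbours and other overlap rules.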

Additional observations from a re-analysis of the deposited data

How the results depend on the processing

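The 1.5 h windows held 2 peaks at 1 gene with gene bodies alone, 3 peaks with flanks of 20 kb and 11 with 100 kb. They held 3 peaks at 1 gene with scores of at least 60, and 1 peak at 1 gene with scores of at least 100. The 16 h windows held 4 peaks at 2 genes (CDH1 and TP63) with flanks of 100 kb, and 0 under every other alternative. With 100 kb, 4 of the 16 h and 4 of the 1.5 h peaks overlapped the other list; under the other alternatives, among them an overlap spanning 50% or more of each peak and a gap of under 500 bp, 0 did. Equal list lengths, which kept 2095 peaks at 16 h after 229 peaks tied at the limit were left out, and merged neighbours moved no count by over 1.5 times. No paired analysis was possible because 1 library was made per time point, which also leaves nothing to omit in turn. The sequencing depth is unknown, so a site absent from one list may have been missed there.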
